A study of Mus musculus with 15 samples.

Results

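Zbed3, Nlrp5, Zfp57 and Spin1 are maternal-effect genes, whose products are laid down in the growing egg and act in the embryo after fertilization. Here they are described by their ribosome-bound RNA in mouse M2 eggs, PN5 zygotes and early 2-cell embryos. They were taken by their symbols from a table of 55490 genes, 21447 of them protein-coding and 3795 of those with a count in any library, and all 4 were found. They were chosen by their counts in these libraries, 67 or more in all for each, so that their totals and levels are a description and carry no test. No minimum was stated for that choice, and other maternal-effect genes had as many counts, among them Dnmt1 with 442, Npm2 with 351 and Smarca4 with 308.

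The donors were female mice of the B6D2F1 strain, either Eif4e1b knockout (KO) or heterozygous (Het). Donors of both genotypes also had Rpl22, a ribosomal protein, with an HA tag by which ribosomes were pulled down. Eif4e1b encodes a form of the cap-binding translation factor eIF4E that is found in eggs. The comparison asks whether mRNAs of the egg are bound by ribosomes differently without it. All libraries hold ribosome-protected RNA, and no total RNA was analysed here. A change in ribosome binding and a change in the amount of an mRNA therefore cannot be told apart, between genotypes or stages. M2 eggs gave 2 Het and 2 KO libraries, PN5 zygotes 3 and 3, and early 2-cell embryos 3 and 2, with about 200 eggs or zygotes or about 100 embryos pooled in each. The control is a heterozygote, no wild-type group was analysed here, and the labels give neither the sires nor whether libraries came from separate animals, and a p-value here therefore speaks of the spread among these libraries, which may be technical.

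The subcortical maternal complex is a protein assembly under the surface of the egg that is needed for the first cleavages. Nlrp5, also called Mater, is one of its founding members, and Zbed3, a zinc finger protein first known as a partner of Axin in Wnt signalling, belongs to it too. Zfp57 encodes a KRAB zinc finger protein that keeps DNA methylation on imprinted control regions through the loss of methylation in the early embryo. Spin1, or spindlin, is an abundant egg protein tied to the meiotic spindle that reads methylated histone H3.

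The depth in mRNA was low. Library totals ran from 93222 to 1201146 counts, of which 0.696% to 5.10% were in protein-coding genes, that is 5997 to 47399 counts in the egg and zygote libraries and 1059 to 7795 in the early 2-cell libraries. Ribosomal RNA made up nearly all of the rest. Eif4e1b and Rpl22 had 0 counts in all 15 libraries, so neither could serve as a check of the genotype or the tag. Of 13 oocyte markers in the table, 10 were at 0, including the egg coat genes Zp1, Zp2 and Zp3, and the others were Bmp15 with 25 counts, Gdf9 with 11 and Kit with 8. Markers of sperm had no count and those of blood had 1. Levels below are shares of a library's protein-coding counts, in percent, not scaled to gene length, so they compare 1 gene between libraries and not 1 gene with another. Intervals are 95% exact (Clopper-Pearson) intervals, and they and the limits for a count of 0 (3 counts) cover counting error only.

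Zbed3 was seen at every stage and in both genotypes, with 430 counts in 14 of 15 libraries, and its shares spread widely between libraries of 1 group. Zbed3 (ENSMUSG00000041995) lies on chromosome 13, 95323605 to 95337842 on GRCm38. In M2 eggs its 4 and 37 counts in Het were 0.0191% and 0.166% of the protein-coding counts, and its 3 and 36 counts in KO were 0.050% and 0.0760%. Both KO libraries thus lay between the Het libraries. The means were 0.0927 ± 0.104% (SD, n = 2) in Het and 0.0630 ± 0.0183% (n = 2) in KO.

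In PN5 zygotes the Het libraries held 56, 30 and 10 Zbed3 counts, at shares of 0.152%, 0.0904% and 0.116%, and the KO libraries 70, 4 and 145 counts, at 0.455%, 0.0339% and 0.363%. KO replicates 1 and 3 were above every Het library and KO replicate 2 below every one, so the genotypes overlapped. The group means were 0.119 ± 0.0308% (n = 3) in Het and 0.284 ± 0.221% (n = 3) in KO, a ratio of 2.38. The interval of KO replicate 2, 0.00923% to 0.0867%, did not reach those of its replicates, 0.355% to 0.574% and 0.306% to 0.426%, so the spread inside the KO group was wider than counting error.

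In early 2-cell embryos Zbed3 had 1, 0 and 31 counts in Het, at 0.0944%, 0% and 0.398%, and 2 and 1 counts in KO, at 0.123% and 0.0880%. Het replicate 3, which also held 7795 of the 10509 protein-coding counts of its group, gave nearly all of the Het counts, and without it the Het mean was 0.0472%. The library at 0 allows a share of up to 0.181%. The means were 0.164 ± 0.208% (n = 3) and 0.106 ± 0.0249% (n = 2).

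By mean share the groups stood in the order PN5 KO, early 2-cell Het, PN5 Het, early 2-cell KO, M2 Het and M2 KO for Zbed3. Every gap between neighbours in that order was smaller than the larger of their SDs. Neighbours in a sorted order are the closest groups, so here and for the genes below this does not speak of groups further apart. Over both genotypes Zbed3 was at 0.0778 ± 0.0633% in M2 eggs (n = 4), 0.202 ± 0.167% in PN5 zygotes (n = 6) and 0.141 ± 0.151% in early 2-cell embryos (n = 5). The annotated span of Zbed3 also holds the small nucleolar RNA Snora47, which had 69 counts of its own. Snora47 had 26 counts in PN5 KO replicate 1 but 2 in PN5 KO replicate 3 and 0 in early 2-cell Het replicate 3, the libraries with the next highest Zbed3 shares. Another small nucleolar RNA in the span was not among the symbols of the table, and whether reads of such RNAs were counted to Zbed3 was not tested.

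**Figure D1:**
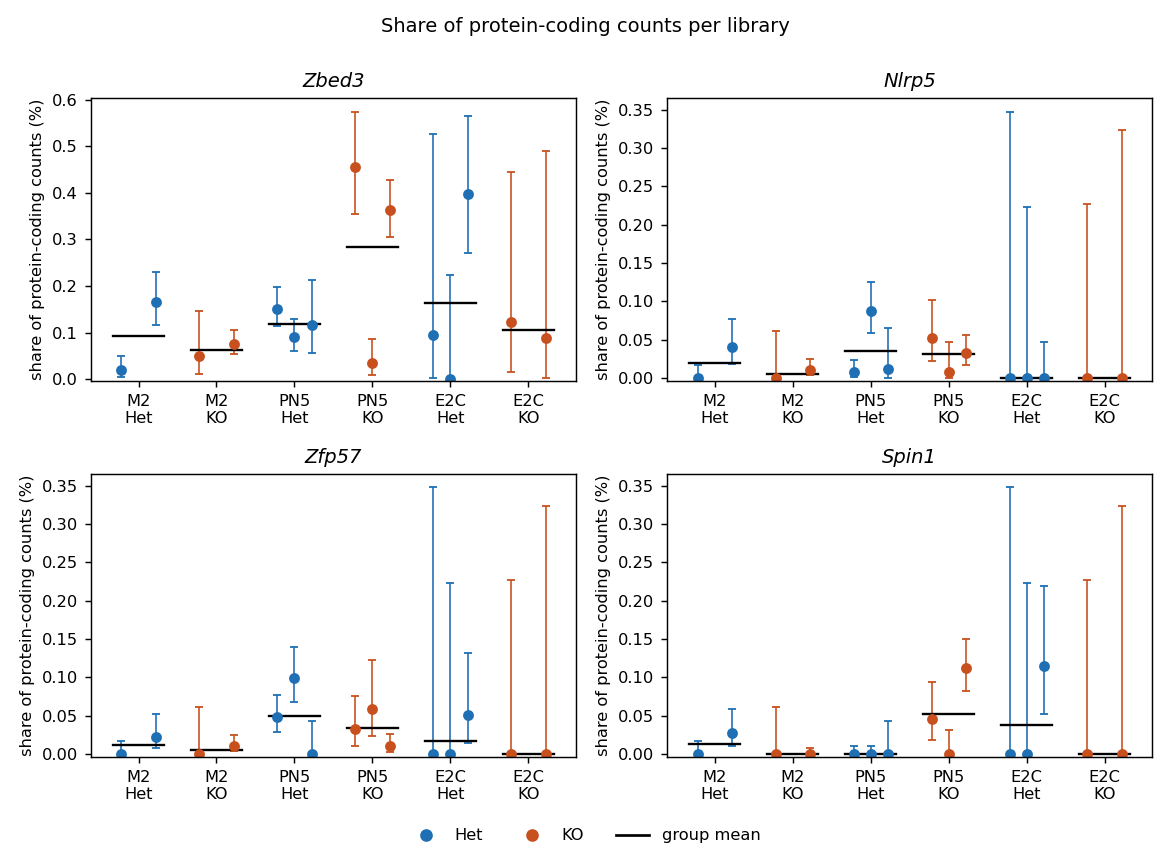
Share of protein-coding counts (percent) of Zbed3, Nlrp5, Zfp57 and Spin1 in each library, by stage and donor genotype (blue Het, orange KO); points are libraries, bars are 95% exact intervals for counting error and black lines are group means. Zbed3 in PN5 KO splits into replicates at 0.455% and 0.363% and one at 0.0339%, Spin1 is at 0 in all PN5 Het libraries, and the wide bars of E2C (early 2-cell) show how little the shallow libraries limit a share.

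Nlrp5 was found in eggs and zygotes and had no count in early 2-cell embryos. The gene (ENSMUSG00000015721, chromosome 7, 23385889 to 23441923) had 69 counts in 8 libraries, 55 of them in PN5 zygotes. M2 eggs had 0 and 9 counts in Het, the latter a share of 0.0404%, and 0 and 5 in KO, the latter 0.0105%. In each genotype of the eggs replicate 2 alone held Nlrp5, although Het replicate 1 had 20907 protein-coding counts beside 22260 in Het replicate 2.

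PN5 zygotes had Nlrp5 in all 6 libraries. The Het counts of 3, 29 and 1 were shares of 0.00813%, 0.0874% and 0.0116%, and the KO counts of 8, 1 and 13 were 0.0520%, 0.00847% and 0.0325%. All 3 KO shares fell between the lowest and the highest Het share. Means were 0.0357 ± 0.0448% (n = 3) in Het and 0.0310 ± 0.0218% (n = 3) in KO, a ratio of 0.868.

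The 5 early 2-cell libraries together had 0 Nlrp5 counts in 13268 protein-coding counts, which allows a share of up to 0.0226%. At the pooled share in PN5 zygotes, 0.0377%, these libraries would hold 5.0 counts. Single early 2-cell libraries allow up to 0.0385% to 0.283%, so that 1 library alone could not show a level below that of the zygotes. By mean share Nlrp5 ran from PN5 Het through PN5 KO, M2 Het and M2 KO to the early 2-cell groups at 0, again with no gap between neighbours above the larger SD.

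Zfp57 had its counts chiefly in PN5 zygotes, 67 of 81. The gene (ENSMUSG00000036036) lies on chromosome 17, 37001163 to 37010729. M2 eggs gave 0 and 5 counts in Het, the latter 0.0225%, and 0 and 5 in KO, the latter 0.0105%, so here too replicate 2 alone of each genotype held the gene. PN5 Het libraries had 18, 33 and 0 counts, at 0.0488%, 0.0994% and 0%, and PN5 KO libraries 5, 7 and 4, at 0.0325%, 0.0593% and 0.0100%. The Het libraries thus held both the highest share and the only 0, and all KO libraries fell within the Het range.

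The PN5 means of Zfp57 were 0.0494 ± 0.0497% in Het (n = 3) and 0.0339 ± 0.0247% in KO (n = 3), a ratio of 0.687. The Het library at 0 allows up to 0.0348%. Early 2-cell embryos had 4 counts, all in Het replicate 3 (0.0513%), and at the pooled share of the zygotes 6.09 would be found there. The 2 KO libraries at 0 allow up to 0.109% over the group, above every share of Zfp57 in the series. In its order, PN5 Het, PN5 KO, early 2-cell Het, M2 Het, M2 KO and early 2-cell KO, no neighbours differed by more than the larger SD.

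Spin1 was the least spread of the 4 genes over libraries, with 67 counts in 4 of 15. The gene (ENSMUSG00000021395, chromosome 13, 51097934 to 51152562) had 6 counts in M2 Het replicate 2 (0.0270%), 7 in PN5 KO replicate 1 (0.0455%), 45 in PN5 KO replicate 3 (0.113%) and 9 in early 2-cell Het replicate 3 (0.115%). All other libraries were at 0, including the 3 of PN5 Het, which hold 78732 protein-coding counts and allow up to 0.00381% together. KO was thus the genotype with counts in zygotes, and Het the one with counts in eggs and early 2-cell embryos.

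In PN5 zygotes Spin1 was at 0.0527 ± 0.0566% in KO (n = 3, with counts in 2 libraries) and 0 in Het (n = 3). The pooled share in KO was 20.3-fold the Het limit of 3 counts. It was 6.75-fold that limit without PN5 KO replicate 3, which held 45 of the 52 counts. Such folds leave out the counting error of the group with counts and are not lower bounds. KO replicate 2 was at 0 as well, so the genotypes overlapped. In M2 eggs the pooled share of the 6 Het counts, all in replicate 2, was 2.47-fold the KO limit of 0.00562%. The interval of that Het share, 0.00510% to 0.0303%, reached below the limit. In early 2-cell embryos the 9 Het counts against 0 gave no fold, since the limit in KO, 0.109%, is above the Het mean of 0.0385 ± 0.0667% (n = 3). In the order PN5 KO, early 2-cell Het, M2 Het and the groups at 0, no gap exceeded the larger SD.

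No difference between KO and Het was called for any of these genes at any stage where it could be tested. Shares of the genotypes overlapped for 4 of 4 genes at each stage. In M2 eggs and early 2-cell embryos both genotypes had libraries without a count of Nlrp5, Zfp57 and Spin1, so overlap there was certain. The same held for Spin1 in PN5 zygotes. Of the 495 tested genes, 23.4% in M2 eggs, 5.86% in PN5 zygotes and 10.1% in early 2-cell embryos had groups that did not overlap. Those values are for normalized counts and leave out Nlrp5 and Zfp57, so they are no measure for the 4 genes. The quasi-likelihood test of edgeR was fitted over all genes that passed its low-count filter, which Zbed3 and Spin1 did and Nlrp5 and Zfp57 did not. A second fit without that filter over 5763 genes gave values for all 4. Spin1 can have passed only through the few libraries where it was high, so that its passing supports nothing.

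For Zbed3 the log2 fold change of KO over Het was -0.88 (SE 1.65) in M2 eggs, 1.36 (SE 1.34) in PN5 zygotes and -1.20 (SE 1.70) in early 2-cell embryos, each with an edgeR adjusted p of 1. KO was higher in 2 of 3 zygote libraries and lower in the means of the other stages. Averaged over stages the value was -0.24 (SE 0.88, edgeR adjusted p = 0.9998). The sign in M2 eggs rested on single libraries, since it turned to 1.95 without Het replicate 2 and to 0.13 without KO replicate 1. That in early 2-cell embryos turned to 1.23 without Het replicate 3, and the mean over stages to 0.79 without M2 Het replicate 2 and to 0.59 without early 2-cell Het replicate 3.

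For Spin1 the zygote difference had an unadjusted p of 0.0351 and an edgeR adjusted p of 0.696, with counts in 2 of 3 KO and 0 of 3 Het libraries. It was the only one of these genes under an unadjusted 0.05 in a genotype comparison. In the zygote comparison 35 of the 495 genes tested were under that value by edgeR. The zygote value of Spin1 also rests on libraries through which it passed the filter, and it supports no difference. In eggs the adjusted p of Spin1 was 1 and in early 2-cell embryos 0.999. Averages over stages gave no estimate for Spin1, because whole groups were at 0.

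With all 15 libraries, Nlrp5 and Zfp57 were tested without the filter only. For Nlrp5 the log2 fold change of KO over Het was -1.43 (SE 2.65) in eggs and -0.51 (SE 2.09) in zygotes, with an edgeR adjusted p of 1 at both stages. For Zfp57 it was -0.61 (SE 2.61, edgeR adjusted p = 1) and -1.25 (SE 2.08, edgeR adjusted p = 0.973). In early 2-cell embryos Nlrp5 had no count and could not be tested. The KO group of Zfp57 was at 0 there, so that no fold is given. Nlrp5 passed the filter in 4 of the fits that left out 1 library and Zfp57 in 10, where the zygote values ran from -0.57 to -0.40 and from -1.24 to -0.80, and neither was called in any comparison. In eggs the sign of Zfp57 turned in 2 of these fits, to 0.30 without KO replicate 1 and, with the Het group then at 0 and so without a fold, without Het replicate 2. With standard errors above 2 on the log2 scale, these tests leave room for differences several-fold either way. In each genotype comparison edgeR called 0 of these genes and 0% of the 495 genes tested, and DESeq2 and limma-voom also called 0 of these genes. Without the filter 0% of 5763 genes were called in eggs and zygotes and 0.0174% both in early 2-cell embryos and in the mean over stages, with 0 of the 4 genes among them.

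**Figure D2:**
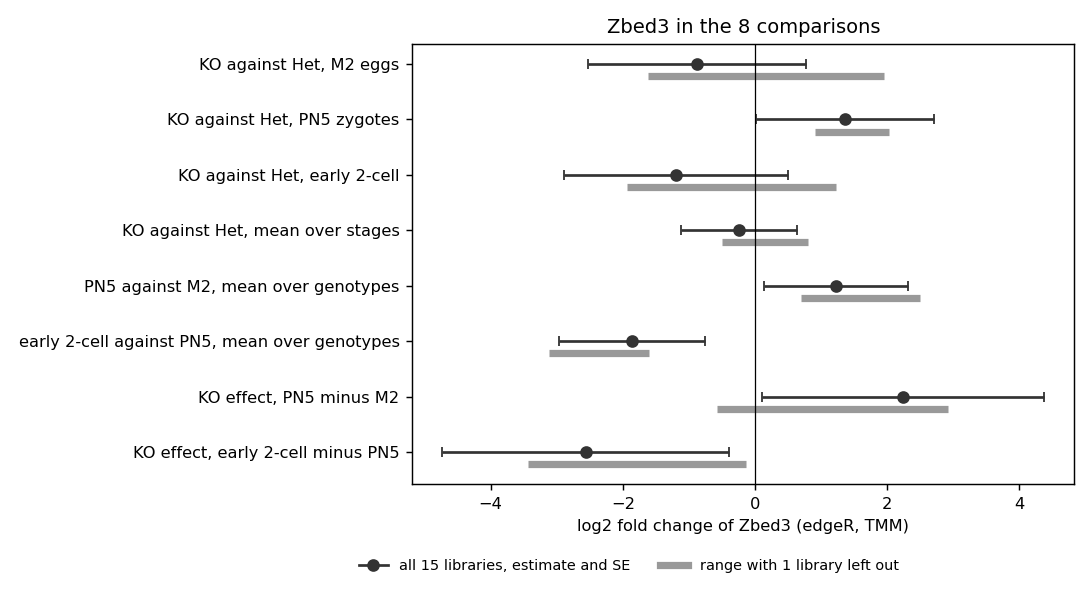
Log2 fold change of Zbed3 in the 8 comparisons (points, with the standard error, from edgeR over all 15 libraries) and the range of the estimate when 1 library is left out (grey bars). The grey bars cross 0 in M2 eggs (-1.62 to 1.95), in early 2-cell embryos (-1.93 to 1.23), in the mean over stages and in the difference of the KO effects of PN5 and M2.

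Whether the KO effect itself changed from stage to stage was tested as a difference of effects. For Zbed3 the effect in PN5 zygotes minus that in M2 eggs was 2.25 on the log2 scale (SE 2.13, edgeR adjusted p = 0.9998), and -0.57 without M2 Het replicate 2. The effect in early 2-cell embryos minus that in PN5 zygotes was -2.56 (SE 2.17, edgeR adjusted p = 0.9998). For Spin1 neither step gave an estimate, because whole groups were at 0. Its unadjusted p by edgeR was 0.0215 for the first step and 0.0332 for the second, with adjusted p of 0.848 and 0.866. These values rest on the few libraries where Spin1 was high, through which it passed the filter, and support no change of the effect. Both comparisons called 0% of the 495 genes tested, and 0 of these genes by edgeR, DESeq2 or limma-voom. Without the filter the shares called were 0% for the first step and 0.0347% for the second.

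At the pooled shares of PN5 zygotes the early 2-cell libraries would hold 28.6 Zbed3 counts, 5.0 of Nlrp5, 6.09 of Zfp57 and 4.73 of Spin1, and they held 35, 0, 4 and 9. Zbed3 and Spin1 were thus above and Nlrp5 and Zfp57 below, and 31 of the 35 and all 9 lay in Het replicate 3.

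Between stages, with genotypes averaged, Zbed3 was 1.22 higher in PN5 zygotes than in M2 eggs on the log2 scale (SE 1.09, edgeR adjusted p = 0.9998), where 0% of the genes tested were called. Without the filter the same step was 1.35 for Nlrp5 (SE 1.73) and 1.90 for Zfp57 (SE 1.76), each with an edgeR adjusted p of 0.9998. All 3 estimates were positive and none passed. From PN5 zygotes to early 2-cell embryos Zbed3 changed by -1.86 (SE 1.11, edgeR adjusted p = 0.258), but the median of all 495 genes in that step was -2.01, so Zbed3 lay near the median gene. That place depended on the method. With DESeq2 size factors in edgeR the values were -0.66 for Zbed3 and -1.24 for the median gene, by DESeq2 -0.65 and -0.49, and by limma-voom -1.34 and -0.10. In this step 0.808% of the genes tested were called and 0 of these genes were. Nlrp5 had an unadjusted p of 0.0185 there without the filter (edgeR adjusted p = 0.739), and 0.278% of the 5763 genes in that fit were called.

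The 4 libraries with Spin1 counts were the 4 with the highest Zbed3 shares. Zbed3 was at 0.166% to 0.455% in these and at 0% to 0.152% in the other 11. Among the 11 are the early 2-cell libraries other than Het replicate 3. A count of 0 there allows a share of up to 0.181% to 0.283%. The highest Spin1 share was 0.115%, so their zeros say little about Spin1. They came from 3 groups, M2 Het, PN5 KO and early 2-cell Het, and not from 1 genotype or stage. Over the 15 libraries the log2 shares of Spin1 and Zbed3 (after adding 0.05%) had a Pearson correlation of 0.79, which describes these libraries and shares their depth and denominator. For Nlrp5 and Zfp57 it was 0.60, and for the remaining pairs 0.23 to 0.41.

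Other genes came up in the same libraries. Bmp15, an egg growth factor gene, had counts in 3 libraries only, 11 in PN5 KO replicate 1, 6 in PN5 KO replicate 3 and 8 in early 2-cell Het replicate 3, all 3 of them libraries with Spin1. Gdf9, its partner, had all 11 of its counts in early 2-cell Het replicate 3. Kit, the other oocyte marker with a count, had 4 of its 8 counts in M2 Het replicate 1, a library without Spin1. It had 3 in PN5 KO replicate 3 and 1 in M2 Het replicate 2. Cyp11a1, the steroid-producing enzyme of follicle cells, had 340 counts in PN5 KO replicate 3, 47 in PN5 KO replicate 1 and 9 in M2 Het replicate 2, but 0 in early 2-cell Het replicate 3 and 160 in M2 Het replicate 1, which had 0 Spin1 counts.

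Of the 15 cumulus and granulosa markers 6 had a count, and their summed share ran from 0.0847% to 0.888% in PN5 KO and from 0% to 0.0298% in PN5 Het. It therefore differed between the genotypes in the same direction as Spin1 and the mean of Zbed3. Library by library this did not hold for PN5 KO replicate 2, at 0.0847% for these markers. That library had 0 Spin1 counts and a Zbed3 share of 0.0339%, below every PN5 Het library. Cyp11a1 gave 387 of the 414 counts in PN5 KO, and Inhba had 25 there against 2 in PN5 Het. Hsd3b1 with 6 counts and Foxl2 with 3 lay the other way, all in PN5 Het replicate 1. The follicle markers Amh, Amhr2, Fshr and Star were at 0. PN5 KO replicate 3 also had the highest share of mitochondrial rRNA, 36.0% against 5.53% to 18.2% elsewhere. The part of follicle cells or of library composition in the zygote values of Spin1 and Zbed3 was not tested, and in pooled samples more cells of a kind and more RNA per cell cannot be told apart.

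**Figure D3:**
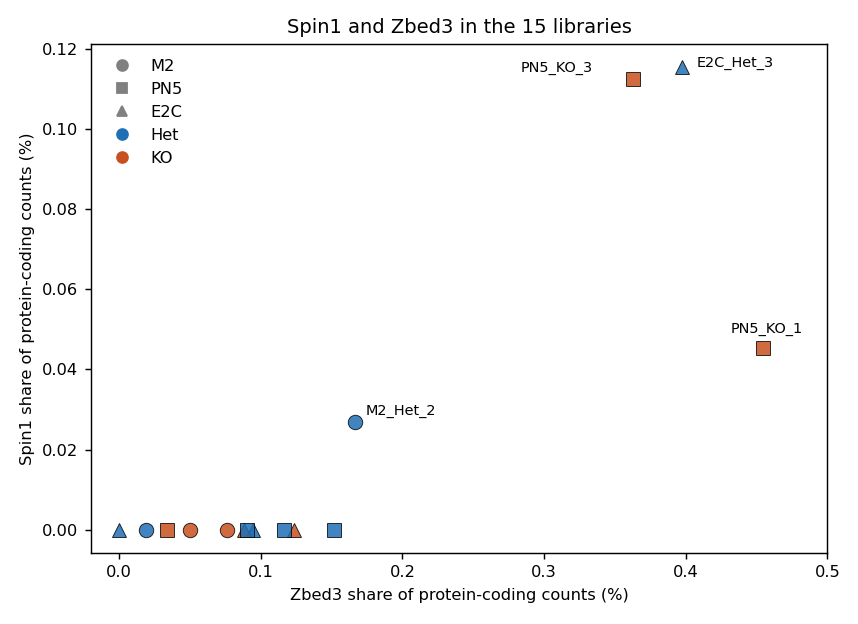
Share of protein-coding counts (percent) of Spin1 against Zbed3 in the 15 libraries; shape gives the stage, colour the donor genotype, and the 4 libraries with Spin1 counts are named. They lie at Zbed3 shares of 0.166% to 0.455%, and the libraries without Spin1 lie along the bottom at 0% to 0.152%.

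Genes whose shares varied most like those of each gene were looked for among the 445 or 446 other protein-coding genes with a count in at least 8 libraries, by the same correlation over 15 libraries. For Zbed3 these were Mtus2 (0.71), Rbm27 (0.61) and the maintenance methyltransferase Dnmt1 (0.59), where the median gene was at -0.05. For Nlrp5 they were D10Wsu102e (0.72), Suco (0.71) and Mphosph10 (0.66). For Zfp57 they were Rad23b (0.60), Nlrp5 (0.60) and the remodeller Chd7 (0.59), and for Spin1 Zbed3 (0.79), Mtus2 (0.69) and Ap1ar (0.65). Mtus2, Rad23b, Suco and D10Wsu102e had 32 to 62 counts each, so that joint zeros weigh in these values.

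Most partners of Nlrp5 and Zbed3 in the subcortical maternal complex were not seen, as was true of most protein-coding genes. Of 16 genes of the complex and of the egg cytoplasmic lattice, 6 had a count and 4 had at least 10. Beside Zbed3 and Nlrp5, which were chosen for their counts, 4 of 14 had a count and 2, or 14.3%, had at least 10. Of all protein-coding genes 17.7% had a count and 7.79% had at least 10, so the zeros were not particular to this list. Tle6, Khdc3, Padi6 and Nlrp2 were at 0 in all libraries. Ooep had 17 counts, 13 of them in PN5 KO replicate 1 and 4 in PN5 Het replicate 1, and Ube2d3 had 24 in 7 libraries. Nlrp4f had 8 and Nlrp14 had 5. Without Zbed3 and Nlrp5 the whole list held 54 of its 553 counts, and Zbed3 alone of the list was tested with the filter.

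Beside Zfp57, 20 genes were listed under imprint maintenance, although not all of them maintain imprints. Of these 20, 10 had a count and 9, or 45%, had at least 10, where 7.79% of all protein-coding genes did. The list was drawn up with counts of these data known, and the difference was not tested. Arid4b had 638 counts in 15 libraries, Dnmt1 442 in 14, Arid4a 289 in 7, Smchd1 52 in 10 and Tet3 46 in 6, while Ezh2 had 150 in PN5 KO replicate 3 alone. Zfp445, which acts beside Zfp57 at imprinted regions, had 35 counts in 8 libraries. Their common corepressor Trim28 was at 0, as were Setdb1, Dnmt3a, Dnmt3l and Uhrf1. Arid4a, Arid4b and Dnmt1 were tested, and 0 of 3 passed in any of the 8 comparisons. Their median log2 fold change of KO over Het was -0.06 in eggs and 0.12 in zygotes, beside -0.02 and 0 over all genes tested.

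Around Spin1, 11 of 18 spindlin relatives and readers or writers of methylated histone H3 had a count. The paralogs Spin2c and Spin4 and the partner Spindoc were at 0. Taf3, a TFIID subunit that binds the same kind of mark, had 597 counts in 12 libraries, Kmt2a 124 in 4, Kmt2c 93 in 8, Kmt2d 51 in 2, Ing2 47 in 5 and Kdm5b 46 in 10. Taf3, Kmt2a and Kdm5b were tested with Spin1, and 0 of 4 passed in any comparison.

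Of 16 genes of the Axin and beta-catenin pathway that Zbed3 is tied to, 9 had a count. Axin1 and Axin2, whose products bind Zbed3, were at 0, as were Dvl1, Dvl2 and Dvl3. Apc had 108 counts in 9 libraries, Lef1 41 in 8, Csnk1a1 31 in 2, Tcf7l2 20 in 1, Lrp6 12 in 3 and Ctnnb1 10 in 3. Apc alone was tested and did not pass in any comparison.

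**Figure D4:**
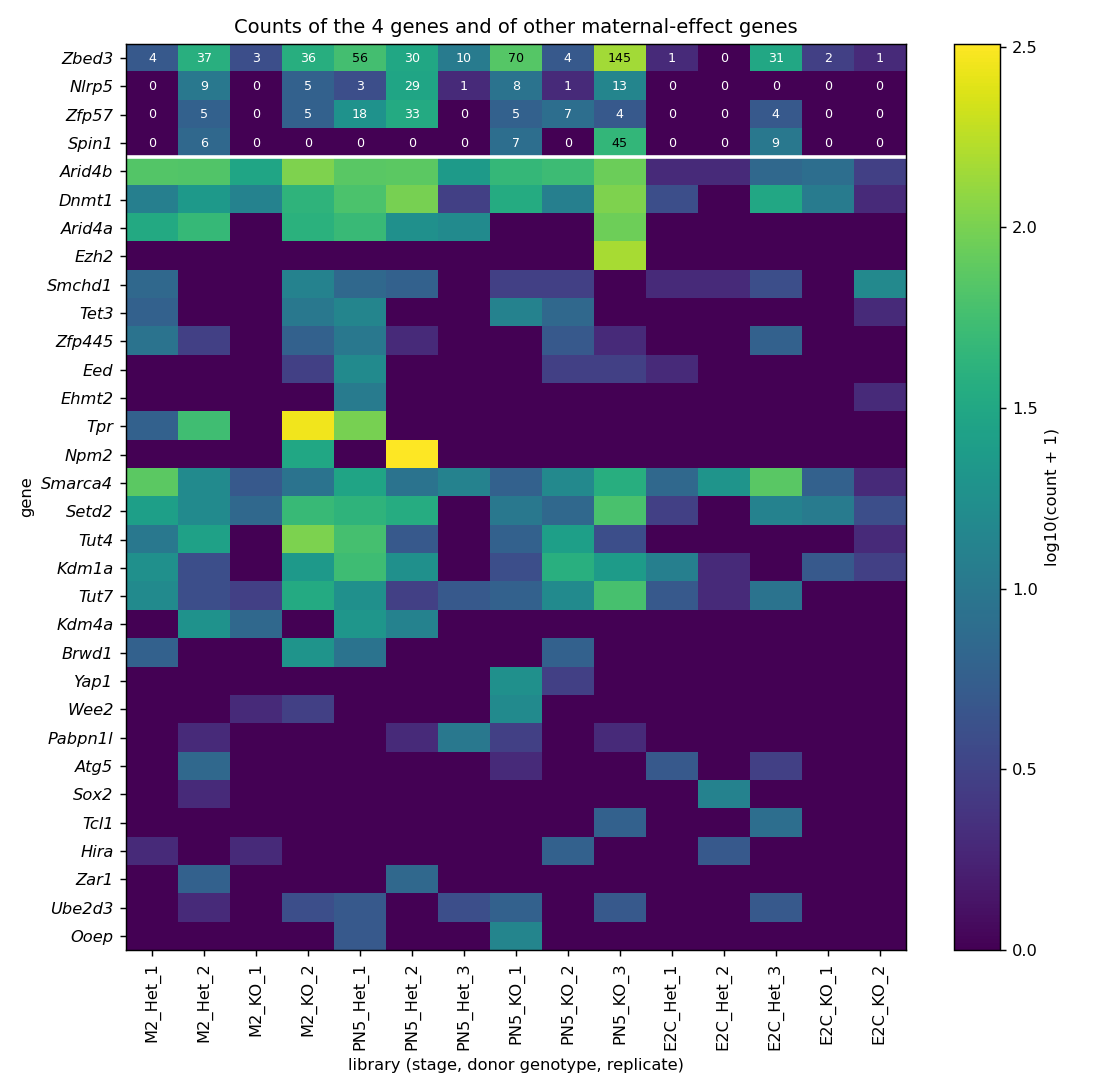
Counts of the 4 genes (top rows, with the numbers written in) and of the other genes with at least 10 counts from the lists of the maternal complex, imprint maintenance and further maternal-effect genes, by library; colour is log10 of the count plus 1. Zbed3 has a count in 14 of 15 libraries, as Dnmt1 does, while Npm2 and Ezh2 fill 2 libraries and 1.

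The spread of counts over libraries set what could be seen. Of 477 protein-coding genes with 50 to 500 counts, the median gene had a count in 8 libraries and drew 34.2% of its counts from 1 library. Zbed3, in 14 libraries with 33.7% from its top library, was among the 9.22% of these genes found in 14 or 15. Nlrp5 and Zfp57 were in 8 libraries each, with 42.0% and 40.7% from PN5 Het replicate 2. Spin1, in 4 libraries with 67.2% from PN5 KO replicate 3, was among the 20.1% found in 4 or fewer. Zygotes held 57.1% of all protein-coding counts and 73.3% of those of Zbed3, 79.7% of Nlrp5, 82.7% of Zfp57 and 77.6% of Spin1. Without PN5 KO replicate 3 these shares were 49.1% of all protein-coding counts, 59.6% of Zbed3, 75% of Nlrp5, 81.8% of Zfp57 and 31.8% of Spin1, so that Spin1 went from above to below the whole. Early 2-cell embryos held 5.19% of all protein-coding counts and 8.14% of those of Zbed3, 0% of Nlrp5, 4.94% of Zfp57 and 13.4% of Spin1. Of 12 pairs of libraries of the same group, the intervals were apart in 4 for Zbed3, 2 for Nlrp5, 1 for Zfp57 and 1 for Spin1, so that in those pairs replicates differed by more than counting error.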

How the data were processed

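Ribosome-protected fragments were profiled in 15 libraries. Per the labels, RNase I digestion (100 U, 45 min) came before a pull-down of tagged ribosomes (4 h) and amplification (22 cycles). Estimated counts per gene, as whole numbers without scaling, were deposited in 1 table. The submitters' processing notes name STAR 2.7.6a and StringTie 2.1.4 beside cutadapt and deepTools 3.5.1, and the build GRCm38. The counting of reads shared by several genes was not given in the sources used here. Biotypes and coordinates came from RefSeq (GRCm38.p6), matched by symbol for 39101 genes and by an older symbol for 164.

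Values here are shares of protein-coding counts. Tests used edgeR 4.0.16 in R 4.3.3 (TMM, filterByExpr with a minimum count of 10, robust quasi-likelihood fit of 6 group means to all 15 libraries, 9 residual degrees of freedom), which tested 495 genes, with Benjamini-Hochberg adjustment over all of them and calls at an adjusted p under 0.05. The script was tested on simulated data, with the same spread between replicates (dispersion 0.4) set for every gene. That spread was not estimated from these data, so the simulation does not measure the error rate in them. In that test unchanged genes were rarely called where few of the tested genes had shifted, but too often in the step from PN5 to early 2-cell where many had. Calls in that step therefore rest on most genes not shifting. The reported fit put the median of the 495 genes there at a log2 fold change of -2.01, and limma-voom put it at -0.10. By the reported fit that condition was not met, and its calls in that step may be too many. SEs were worked back from the test. DESeq2 1.42.0 and limma 3.58.1 (voom) were alternatives.

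The 4 genes and the lists were chosen with earlier results of these data known. The genes named were these 4, Eif4e1b and Rpl22, the 3 genes most alike in pattern to each, and members of the lists with at least 10 counts, up to 6 per list. Genes at 0, and others outside that rule (Bmp15, Gdf9, Kit, Cyp11a1, Snora47, Nlrp4f, Nlrp14, Zfp445, Foxl2 and those in the closing section), were named after their values were seen. Protein sequences were not analysed here.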

Additional observations from a re-analysis of the deposited data

How the results depend on the processing

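None of the 4 genes was called in the 190 fits of a comparison under a setting, which span the reported one, 8 others and each of the 15 libraries left out in turn. Some settings tested fewer of the genes, and the block gave no value for the 2 comparisons of stages. Spin1 was not tested at a mean of at least 20 counts, or without PN5 KO replicate 3 or early 2-cell Het replicate 3. Of 240 fold changes recomputed for Zbed3 and Spin1, 230 kept their direction and 10 reversed, all for Zbed3. Those of Spin1 each set a group with counts against a group at 0. Their direction was thus all but fixed, and its being kept supports nothing for Spin1. By limma-voom the M2 genotype difference was 0.074. With the replicate number as a block, the replicate block fit, it was 1.45 in early 2-cell embryos, 0.65 in the mean over stages and 0.75 for the early 2-cell minus PN5 effect, all uncalled. Same-numbered Het and KO libraries had deviations that correlated at -0.155 in M2 eggs, at -0.154, -0.324 and 0.104 in PN5 zygotes, and at -0.0376 and 0.0254 in early 2-cell embryos, so the numbers are not shown to pair them. With 1 library left out Zbed3 ranged from -1.62 to 1.95 in M2 eggs, -1.93 to 1.23 in early 2-cell embryos, -0.50 to 0.79 in the mean over stages and -0.57 to 2.93 for PN5 minus M2. A group left with 1 library is assumed to vary like the others. Spin1 and Zbed3 adjusted p over all settings ran from 0.431 and 0.811 to 1 in zygotes. Nlrp5 and Zfp57 passed the filter only in some fits with a library left out. Over all genes, edgeR called 0 for KO against Het in eggs, zygotes, early 2-cell embryos and their mean, where DESeq2 called 2, 2, 4 and 2, edgeR with 1 library left out up to 0, 8, 1 and 2, and edgeR without the filter 0, 0, 1 and 1. It called 0 from egg to zygote (DESeq2 1, left out up to 2) and for both differences of effects (DESeq2 0, left out up to 4 and 2, without the filter 0 and 2), and 4 genes from zygote to early 2-cell where DESeq2 called 52, limma-voom 22, library totals in edgeR 0, edgeR without the filter 16, and the fits without 1 library 0 to 53.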

Other observations

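Some other genes that act in the egg or early embryo drew most of their counts from 1 library. Npm2, which encodes the egg nucleoplasmin that remodels sperm chromatin, had 321 of its 351 counts in PN5 Het replicate 2 and the other 30 in M2 KO replicate 2. The nuclear pore gene Tpr had 285 of 441 counts in M2 KO replicate 2. The Polycomb methyltransferase gene Ezh2 had all 150 counts in PN5 KO replicate 3. The pluripotency factor Sox2 had 12 of 13 counts in early 2-cell Het replicate 2, where Zbed3 was at 0. In PN5 KO replicate 1, Wee2, which encodes an egg-specific kinase, had 15 of 18 counts and Yap1 had 17 of 19. In contrast, the remodeller Smarca4 had 308 counts in all 15 libraries, Setd2 273 in 13 and the uridylyltransferase gene Tut7 168 in 13. The genes in this paragraph were chosen after their values were seen, and the cause of the uneven spread was not tested.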
